A study of Mus musculus with 6 samples.

Results

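The transcripts described here are those behind 1836 probes for long intergenic noncoding RNAs (lincRNAs), chosen because the probe name holds the word lincRNA in any case of letters. They are 1836 of the 60915 non-control probe names on the arrays, and the choice used the name only, not a measured value. Neocortex RNA came from 3 adult male Khsrp-/- mice, which lack KHSRP in all cells because the Khsrp gene carries a constitutive deletion, and from 3 adult male wild type littermates. Each mouse gave 1 array, labelled with Cy3 in 1 colour after removal of rRNA and priming with both random and oligo(dT) primers. The comparison of genotypes asks which transcripts change in adult neocortex when KHSRP, an RNA-binding protein that promotes decay of mRNAs with AU-rich elements, is lost.

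Long intergenic noncoding RNAs are transcripts that lie between protein-coding genes and have no long open reading frame. Many are spliced and polyadenylated like mRNAs, are present at low levels, and are known for tissue-restricted expression, with the brain among the tissues that express many of them. Some act in the nucleus on transcription or chromatin, and others act on RNA in the cytoplasm, but for most of them no function is known.

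The probe names fall into 3 kinds. Of the 1836 probes, 1104 were named humanlincRNA, 649 mouselincRNA and 83 MM9LINCRNAEXON, each followed by a number and a plus or minus sign. The sources used here do not define the prefixes, and the sign is read as a mark of strand. No probe name holds a chromosome position, and 0 of these probes were paired with a gene symbol by the tables used, so each transcript is called by its probe name. In all, 960 different numbers were present, and 876 of them had both a plus and a minus probe. The 2 probes of 1 number share a locus by name and are not independent members.

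The files give 3 scan times, each for 2 arrays, and an equal scan time is read here as a common slide. By this reading 1 slide held both genotypes, with Khsrp-/- array 1 beside wild type array 3. A slide of its own held the remaining 2 arrays of each genotype. For the other 4 arrays, slide and genotype cannot be told apart. Khsrp itself was not analysed here, and the genotypes rest on the sample labels. Of 18 marker genes of cortical cell types, 2 had a probe named in the tables used. These were Snap25, a neuronal SNARE protein, and Slc1a2, an astrocyte glutamate transporter, and both were well above background on all 6 arrays. In bulk tissue, fewer cells of a type and less RNA per cell cannot be told apart.

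Fewer lincRNA probes than other probes were detected on each array. A probe counts as detected where the scanner software marked its spot as well above background. The Khsrp-/- arrays, in the order 1 to 3 that is kept throughout, detected 56.2%, 39.3% and 47.5% of the lincRNA probes, against 83.6%, 72.4% and 77.9% of the 59079 other probes. In wild type neocortex the shares were 54.2%, 52.4% and 47.8% of the lincRNA probes, against 80.9%, 79.8% and 78.5% of the others. The highest share of lincRNA probes on any array thus lay below the lowest share of other probes, and Khsrp-/- array 2 had the lowest share of both. The ranges of the genotypes overlapped. Of the 300 negative control spots, 5.33% were marked as detected on Khsrp-/- array 2 and between 14.3% and 15.3% on the other arrays, so that part of the marked probes is background.

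Counted over arrays, 636 lincRNA probes (34.6%) were detected on all 6 arrays and 663 (36.1%) on none. Among the other probes, 70.0% were detected on all arrays and 13.2% on none. The remaining lincRNA probes were detected on 1 to 5 arrays, with 128 on 1 array, 86 on 2, 81 on 3, 110 on 4 and 132 on 5. Detection was most frequent in the MM9LINCRNAEXON probes, of which 48.2% were detected on all arrays. The mouselincRNA and humanlincRNA probes, at 35.4% and 33.2%, lay close to each other. No test was made of these shares, because the members were chosen with earlier results known.

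**Figure D1:**
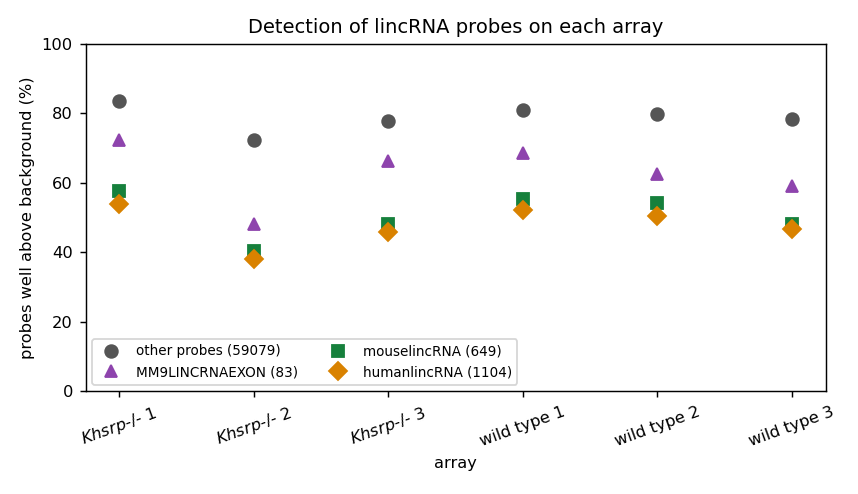
Share of probes well above background (y axis, percent) on each of the 6 arrays (x axis), with 1 point for each kind of probe and its number of probes in the legend. On every array the other probes lie highest, the MM9LINCRNAEXON probes second, and the mouselincRNA and humanlincRNA probes lowest, between 38.0% and 57.8%.

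The lincRNA probes were also dim. Signals are given as log2 of the background-subtracted intensity minus the 75th percentile of the array, so that a probe at 0 is as bright as that percentile. The lincRNA median of this scaled log2 signal was -4.90, -4.80 and -4.72 in Khsrp-/- and -4.65, -4.64 and -5.07 in wild type neocortex. For the other probes the median was between -2.34 and -2.24. The lincRNA median was therefore lower by between 2.40 and 2.73 on each array, and the lowest lincRNA median came from wild type array 3. Among the negative control spots the median was between -7.68 and -6.47, below the lincRNA median of every array.

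Bright lincRNA probes were few. On all 6 arrays, 51 lincRNA probes (2.78%) were brighter than the 75th percentile, against 22.5% of the other probes. By kind, these were 32 humanlincRNA, 15 mouselincRNA and 4 MM9LINCRNAEXON probes. Brightness also depends on how well each probe binds, so a dim probe is not by itself a rare transcript.

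**Figure D2:**
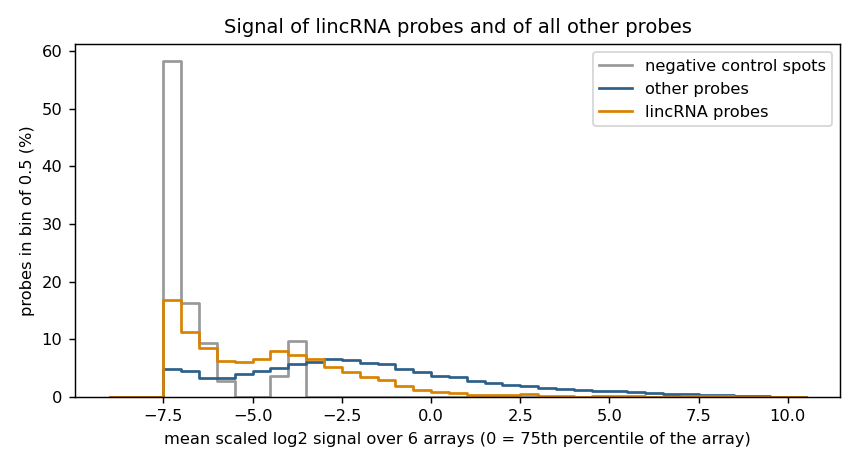
Distribution of the mean scaled log2 signal over the 6 arrays (x axis, 0 is the 75th percentile of the array) as the percent of probes in bins of 0.5 (y axis), for lincRNA probes, other probes and negative control spots. The lincRNA probes have a peak at the position of the negative controls and a broad shoulder around -4, and few of them lie above 0.

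The plus and minus probes of the same number were compared, since a locus named without a known strand would be read by only 1 of them. A probe was tested further where it was detected on at least 3 of the 6 arrays. Of the 876 numbers with both signs, 204 had the plus probe alone tested and 214 the minus probe alone. For 247 numbers both probes were tested, and for 211 neither was. Plus and minus probes were tested about as often, at 51.5% and 52.6% of these numbers.

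Signals on the opposite signs were nearly unrelated. Across the 876 numbers, the mean signals of the plus and minus probes had a Pearson correlation of 0.09 and a Spearman correlation of 0.06, as a description over loci of the same 6 arrays. For 103 numbers the plus probe was detected on all arrays and the minus probe on none, and for 101 numbers the reverse held. For 110 numbers both probes were detected on all arrays. The median over numbers was -3.52 for the brighter probe of a pair and -6.43 for the dimmer probe, and the latter lies next to the negative control medians given above.

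The brightest lincRNA probes had dimmer partners of the other sign, but some of these partners were detected. humanlincRNA1739+ had a mean scaled log2 signal of 7.10 and was detected on all arrays, while humanlincRNA1739- had one of -7.09 and was detected on 0. mouselincRNA0161-, at 8.14, was paired with mouselincRNA0161+ at -5.01, and mouselincRNA1606-, at 7.85, with mouselincRNA1606+ at -3.58. humanlincRNA2397+, at 7.44, was paired with humanlincRNA2397- at -0.24. MM9LINCRNAEXON10664+, at 7.19, was paired with MM9LINCRNAEXON10664- at 0.81. Both of these minus probes were detected on all 6 arrays. Of 26 numbers with a probe above a mean of 2, both probes lay above 2 for 2 numbers, and the dimmer probe was detected on no array for 7 and on all arrays for 11.

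**Figure D3:**
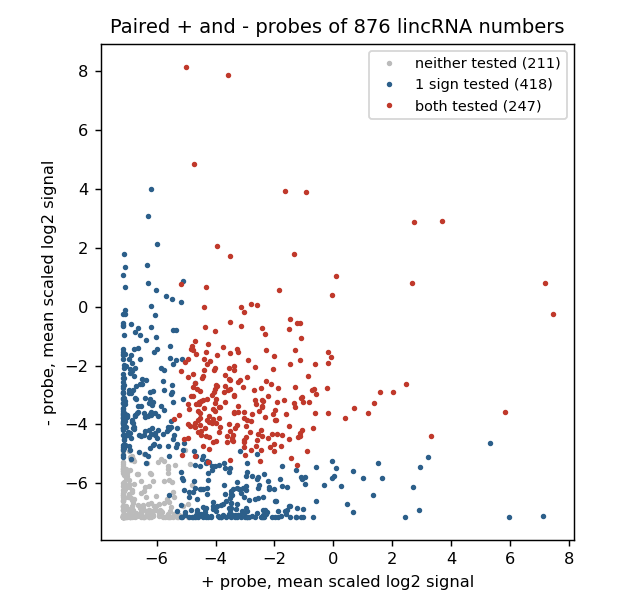
Mean scaled log2 signal over 6 arrays of the plus probe (x axis) and of the minus probe (y axis), with 1 point for each of 876 lincRNA numbers, coloured by whether both, 1 or neither probe was tested. The points fill 2 arms along the axes and a cloud between them, and do not follow a diagonal.

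The spread between arrays of the same genotype was wider for lincRNA probes. Over the 959 lincRNA probes tested, the residual SD of the log2 signal had a median of 0.353, against 0.244 over the 47479 other probes tested. With normexp background correction this difference was -0.0033, so that its direction turned. Against other probes matched in bins of signal it was 0.055 in place of 0.108. Between a mean signal of -4 and -3, the median residual SD was 0.345 for 254 lincRNA probes and 0.307 for 6924 other probes, and between -2 and -1 it was 0.242 for 118 and 0.219 for 6863. Above a mean of 2 it was 0.488 for 30 lincRNA probes and 0.213 for 7884 other probes.

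Among the bright lincRNA probes, a wide spread went with the slide. Of the 29 with a mean above 2 and a value on every array, 6 (20.7%) had a residual SD over 1, against 2.31% of the 7884 other bright probes. On all 6 of these lincRNA probes both Khsrp-/- array 1 and wild type array 3 lay below the other 4 arrays. For humanlincRNA1516- the scaled log2 signals were 1.54, 4.48 and 3.86 in Khsrp-/- and 3.61, 3.69 and 1.25 in wild type neocortex. For humanlincRNA2246+ the signals were 2.17, 4.51 and 4.57 against 4.19, 4.29 and 2.32. The arrays of the slide with both genotypes were thus the low ones in both genotypes, and the genotypes overlapped.

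The other 4 of these probes were humanlincRNA0847-, humanlincRNA2330+, humanlincRNA1145+ and mouselincRNA0513+. The mean of the 2 arrays of that slide was lower than the mean of the other 4 arrays by between 1.75 and 2.51 over the 6 probes. None of the 6 passed the thresholds between genotypes. Of the bright lincRNA probes, 12 of 29 (41.4%) were below the other 4 arrays on both arrays of this slide, against 10.6% of the 7864 other bright probes with all values. For all lincRNA probes with all values, 217 of 955 (22.7%) were below and 150 (15.7%) above, against 12.9% and 9.98% of the other probes. The 6 probes were picked out after their values were seen, and the part of the slide in their spread was not tested.

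Other bright probes were steady. mouselincRNA0161-, the brightest lincRNA probe, stood at 8.07, 8.12 and 8.07 in Khsrp-/- and at 8.27, 8.30 and 8.03 in wild type neocortex on the scaled log2 scale, with a residual SD of 0.106. The genotypes overlapped, and the log2 fold change was -0.12 ± 0.15 (SE, limma adjusted p = 0.727). A total of 6 bright lincRNA probes had a residual SD under 0.2, among them humanlincRNA2438+, humanlincRNA0635+ and mouselincRNA0772-. The last 2 of these passed the unadjusted thresholds explained further on, with log2 fold changes of 0.39 (SE 0.16) and -0.50 (SE 0.17), neither of them after adjustment.

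**Figure D4:**
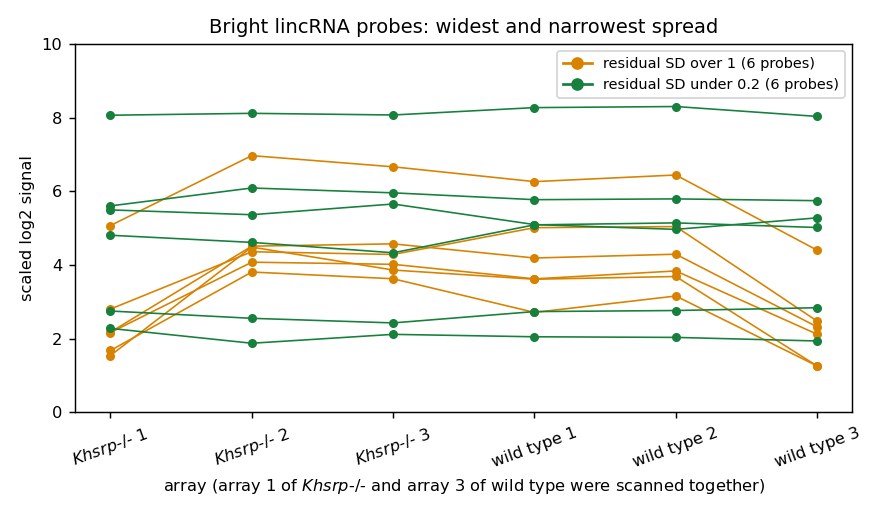
Scaled log2 signal (y axis) on each array (x axis) of the 6 bright lincRNA probes with a residual SD over 1 and the 6 with one under 0.2, with points of 1 probe joined by a line. The 6 variable probes drop on Khsrp-/- array 1 and wild type array 3. On these arrays the mean of the 6 steady probes differs by between -0.23 and 0.18 from that of the other 4 arrays. A residual SD under 0.2 leaves little room for such a drop, so this contrast follows from how the probes were chosen.

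The next probes in brightness overlapped between genotypes. The scaled log2 signals of mouselincRNA1606- were 7.35, 7.91 and 7.53 in Khsrp-/- and 8.43, 8.34 and 7.54 in wild type neocortex, a difference of -0.51 ± 0.28 (SE, limma adjusted p = 0.402). Wild type array 3 was level with Khsrp-/- array 3, and without it the difference was -0.79 and passed the unadjusted thresholds. humanlincRNA2397+ measured 6.73, 7.79 and 7.67 against 7.79, 7.83 and 6.82, and differed by -0.08 (SE 0.37). humanlincRNA1739+ measured 6.42, 7.57 and 7.35 against 7.41, 7.53 and 6.32, and differed by 0.03 (SE 0.41). In both of these the low arrays were again Khsrp-/- array 1 and wild type array 3.

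MM9LINCRNAEXON10664+ was the 1 probe among the 5 brightest to pass the unadjusted thresholds. It measured 7.39, 6.84 and 6.06 in Khsrp-/- against 7.56, 7.60 and 7.70 in wild type neocortex, without overlap. The difference was -0.85 ± 0.32 (SE, limma adjusted p = 0.272), and -0.32 within the slide that held both genotypes. This call needed nearly every array: it was lost without any 1 of Khsrp-/- arrays 2 and 3 and wild type arrays 1, 2 and 3, with limma p-values from 0.0551 to 0.0729.

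Between genotypes, few lincRNA probes differed, and whether more were higher or lower depended on the processing. At an unadjusted p under 0.05 from limma and a change of at least 1.25-fold, 50 of the 959 lincRNA probes tested (5.21%) were higher, where the background over all 48438 probes tested is 9.26%. Lower were 70 (7.30%), where the background is 7.03%. In both directions together 120 were called (12.5%), against a background of 16.3%. The share of lower lincRNA probes was thus near the background, and that of higher ones was below it. The order of the counts turned with normexp, another background correction, to 55 higher and 33 lower, and without wild type array 2 to 39 higher and 32 lower. The methods' t-test called 33 in each direction. With single arrays left out, the lower count lay between 32 and 184 and the higher count between 33 and 74. The backgrounds above belong to the main fit, and for the other settings no share over all probes is given here. The 877 other lincRNA probes were detected on fewer than 3 arrays and were not tested. The shares called in the main fit also depended on signal. In each bin of mean signal below 0 the lincRNA share was the lower one, as with 8.47% of 118 against 15.2% of 6863 other probes between -2 and -1. Above 0 it was the higher one, with 34.1% of 41 against 20.4% of 7200 between 0 and 2. Over 2 the shares were 23.3% of 30 and 17.0% of 7884. This difference between bins was not tested.

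Arrays without overlap were counted as well. With 3 arrays against 3, the smallest p of a two-sided exact permutation test is 0.1. Among the 955 lincRNA probes measured on each of the 6 arrays, the genotypes were fully apart for 61 that were higher in Khsrp-/- neocortex (6.39%) and for 85 that were lower (8.90%), where the background over all probes is 12.4% and 9.9%. In either direction the share was 15.3%, where the background is 22.3%. Of the 120 lincRNA probes called, 95 did not overlap, against 6871 of 7889 called over all probes. By kind, 27 humanlincRNA probes (4.84%) were called higher and 34 (6.09%) lower of 558 tested. Of 347 mouselincRNA probes, 21 (6.05%) were higher and 33 (9.51%) lower. Of 54 MM9LINCRNAEXON probes, 2 (3.70%) were higher and 3 (5.56%) lower. The background of such calls over all probes tested is 9.26% higher and 7.03% lower.

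The median log2 fold change of the tested lincRNA probes was -0.15, against -0.00056 over all probes tested. Between the arrays of the shared slide the median difference was 0.04 for lincRNA probes and -0.0048 for other probes, so that on these 2 arrays the lincRNA median lay above that of the other probes. With normexp the medians were 0.08 for lincRNA and 0.09 for other probes, and without the filter on dim probes they were 0.01 and 0.04. In both settings the lincRNA median had the opposite sign, but stayed below that of the other probes by a smaller margin.

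On the shared slide the calls in each direction were described separately, and the difference between directions was not tested. Among the 50 higher probes, the median log2 fold change was 0.83, and the median difference of Khsrp-/- array 1 from wild type array 3 was 0.76. On that slide 49 of the 50 differed in the same direction, 42 of them by at least 1.25-fold. Among the 70 lower probes, the median log2 fold change was -0.82, but the median difference on the shared slide was -0.24. There 55 of the 70 differed in the same direction and 26 by at least 1.25-fold. Both arrays were part of the comparison that chose the probes, and the counts are a description. No such counts over all called probes are given here, so whether other called probes did the same is not shown.

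The levels of the lower probes differed between slides as well. Their median scaled log2 signal was -2.83, -3.54 and -3.16 in Khsrp-/- and -2.22, -2.24 and -2.73 in wild type neocortex, so that Khsrp-/- array 1 and wild type array 3 lay closest to each other across genotypes. The count of lower probes moved with the arrays used. It was 184 without Khsrp-/- array 1 and 113 without wild type array 3, but 34 without Khsrp-/- array 2, 35 without the first wild type array and 32 without the second. What part the slide had in these calls was not tested.

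Rises were led by probes near background in wild type neocortex. After Benjamini-Hochberg adjustment over all probes, 4 lincRNA probes were higher and 0 lower at an adjusted p under 0.05 from limma, where the background is 0.0826% for higher probes and 0.095% for either direction. All 4 were humanlincRNA probes. humanlincRNA1546-, humanlincRNA1828- and humanlincRNA1070+ were not well above background in wild type neocortex, on 0 of 3 arrays. Such a probe enters the test only through the Khsrp-/- arrays, so it had to differ. Its limma p-value is therefore no support for a difference. For such probes, the fold is given as a bound. The wild type level is then the lowest signal of any probe well above background on that array. Where the signal of the probe itself was higher, that signal is used. The bound is a mean over arrays under the main background subtraction and scaling, and other processing can give a smaller difference.

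humanlincRNA1546- had background-subtracted intensities of 29.2, 43.7 and 51.7 in Khsrp-/- against 3.13, 3.41 and 2.79 in wild type neocortex. On the scaled log2 scale the wild type values, -7.28, -7.19 and -7.24, equal the negative control median of each array. They are floor values, so the wild type SD of 0.046 is not a spread between mice. Under the main processing, humanlincRNA1546- was at least 3.18-fold higher in Khsrp-/- neocortex. Its lack of overlap and its limma adjusted p of 0.0150 are no support, because it was tested only through the Khsrp-/- arrays. humanlincRNA1828- had intensities of 51.6, 45.2 and 58.4 against 12.6, 13.5 and 13.3. Under the main processing it was at least 4.05-fold higher (limma adjusted p = 0.0211, likewise no support). humanlincRNA1070+ had intensities of 60.1, 29.9 and 45.6 against 12.6, 12.9 and 8.17. Under the main processing it was at least 3.42-fold higher (limma adjusted p = 0.0345, likewise no support). In all 3 the Khsrp-/- signals lay low on the scale of the array, between -3.98 and -2.56. With normexp the log2 differences of the 3 probes were 0.99, 0.67 and 0.67. Their bounds on the log2 scale were 1.67, 2.02 and 1.78, so the bounds do not hold there. Within the shared slide humanlincRNA1828- differed by 1.83, also below its bound.

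humanlincRNA0848- was the 1 of the 4 that was detected on all 6 arrays. It measured -1.79, -2.03 and -1.53 in Khsrp-/- and -3.66, -3.38 and -3.56 in wild type neocortex on the scaled log2 scale, with no overlap. The difference was 1.75 ± 0.18 (SE, limma adjusted p = 0.0368), and 1.77 within the shared slide. With each array left out in turn it stayed between 1.63 and 1.87. Under normexp background correction it was 1.0031, and limma then called 0 lincRNA probes after adjustment, with 55 higher and 33 lower at the unadjusted thresholds. After adjustment limma called 38 lincRNA probes without Khsrp-/- array 1, 1 without Khsrp-/- array 2, and 0 without Khsrp-/- array 3 (33 higher and 52 lower unadjusted). It called 1 without the first wild type array, 0 without the second (39 higher and 32 lower unadjusted) and 4 without the third.

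By fitted difference, the next rises past the unadjusted thresholds with no overlap of genotypes were mouselincRNA0208-, humanlincRNA0127+, humanlincRNA0573-, mouselincRNA0726+ and mouselincRNA0401-. The first 3 were not well above background in wild type neocortex, so they too had to differ. Their bounds were at least 2.23-fold, at least 2.19-fold and at least 3.12-fold higher. Their limma adjusted p-values, 0.106, 0.106 and 0.0603, are no support for a difference. With normexp the log2 differences of these 3 probes were 0.65, 0.63 and 0.70, against bounds of 1.16, 1.13 and 1.64 on the log2 scale. A fitted difference of such a probe is no bound, so their rank among the rises is not known. The last 2 were well above background on 1 wild type array each, so their differences rest partly on signals near background. With normexp their log2 differences were 0.65 and 0.75. mouselincRNA0726+ was detected on 2 of the 3 Khsrp-/- arrays and lost its call with the slide as a fixed block. It measured -3.12, -4.18 and -2.76 in Khsrp-/- and -6.00, -6.80 and -4.29 in wild type neocortex, on the scaled log2 scale. Khsrp-/- array 2 and wild type array 3 nearly met, and the difference was 2.34 ± 0.65 (SE, limma adjusted p = 0.214). mouselincRNA0401- measured -4.73, -2.53 and -2.68 against -4.91, -5.36 and -5.91, so that Khsrp-/- array 1 was near wild type levels, and differed by 2.08 ± 0.59 (SE, limma adjusted p = 0.217).

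Detection that separated the genotypes completely was rare. On all 3 Khsrp-/- arrays and on no wild type array, 7 lincRNA probes (0.381%) and 0.149% of the other probes were detected. Besides the 6 probes already given with a bound, the remaining one was humanlincRNA0115+, at least 1.95-fold higher under the main processing. It too had to differ, and with normexp its log2 difference was 0.58, below its bound of 0.96. On all 3 wild type arrays and on no Khsrp-/- array, 2 lincRNA probes (0.109%) and 0.0559% of the other probes were detected. These were mouselincRNA1397- and humanlincRNA2281+, at least 1.42-fold and at least 1.04-fold lower in Khsrp-/- neocortex. The latter did not pass the thresholds (unadjusted p = 0.124 from limma). With normexp the log2 difference of mouselincRNA1397- was -0.0046.

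Falls included bright probes. In 7 of the 8 largest falls the SD of the Khsrp-/- arrays was above that of the wild type arrays, and in mouselincRNA0963- it was below, at 0.283 against 0.616. With the slide as a fixed block, which leaves the comparison to the slide with both genotypes, all 8 lost their call, with limma p-values from 0.194 to 0.679. humanlincRNA2163- had intensities of 4699, 1244 and 552 in Khsrp-/- against 6437, 5675 and 7162 in wild type neocortex. The genotypes did not overlap, but Khsrp-/- array 1 was nearer to wild type levels than to Khsrp-/- array 3. The log2 difference was -1.82 ± 0.60 (SE, limma adjusted p = 0.240), and -0.73 within the shared slide. The call was lost without Khsrp-/- array 2 and without wild type array 3, where the log2 difference was -1.76 and -1.67. The probe of the other sign, humanlincRNA2163+, was also bright, at 2.98, 2.26 and 2.42 against 2.85, 2.94 and 2.96 on the scaled log2 scale, and did not pass the thresholds (log2 difference -0.36, SE 0.21, limma adjusted p = 0.426).

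mouselincRNA0706- had intensities of 828, 328 and 289 in Khsrp-/- against 1453, 1774 and 815 in wild type neocortex. Khsrp-/- array 1 and wild type array 3, on the shared slide, were alike, and on the scaled log2 scale they differed by -0.10. Over all arrays the log2 difference was -1.29 ± 0.35 (SE, limma adjusted p = 0.207). humanlincRNA0997+ had intensities of 771, 355 and 241 against 1120.1, 1249 and 985, a log2 difference of -1.17 ± 0.30 (SE, limma adjusted p = 0.196), and -0.48 within the shared slide.

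humanlincRNA1278- measured -2.18, -3.62 and -2.65 in Khsrp-/- and -1.40, -1.47 and -1.47 in wild type neocortex on the scaled log2 scale. The wild type values were close together, and the Khsrp-/- values lay below them. It differed by -1.37 ± 0.34 (SE, limma adjusted p = 0.190), and by -0.70 within the shared slide. mouselincRNA1562+, mouselincRNA0963-, humanlincRNA1166+ and humanlincRNA1007- completed the 8 largest falls, with log2 differences of -1.58, -1.32, -1.31 and -1.20 and limma adjusted p-values between 0.184 and 0.274. Each was detected in all wild type mice and in 1 or 2 of the Khsrp-/- mice. Within the shared slide they differed by -0.38, -0.36, -0.53 and -0.73. With normexp the log2 differences of these 4 probes were -0.14, -0.36, -0.28 and -0.12, and that of humanlincRNA1278- was -0.67. The brighter humanlincRNA2163-, mouselincRNA0706- and humanlincRNA0997+ differed by -1.81, -1.20 and -1.04 with normexp. humanlincRNA1007- lost its call without wild type array 2 and without wild type array 3, where the log2 difference was -1.06 and -1.27, and with the slide as a random block, where it was -1.11.

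**Figure D5:**
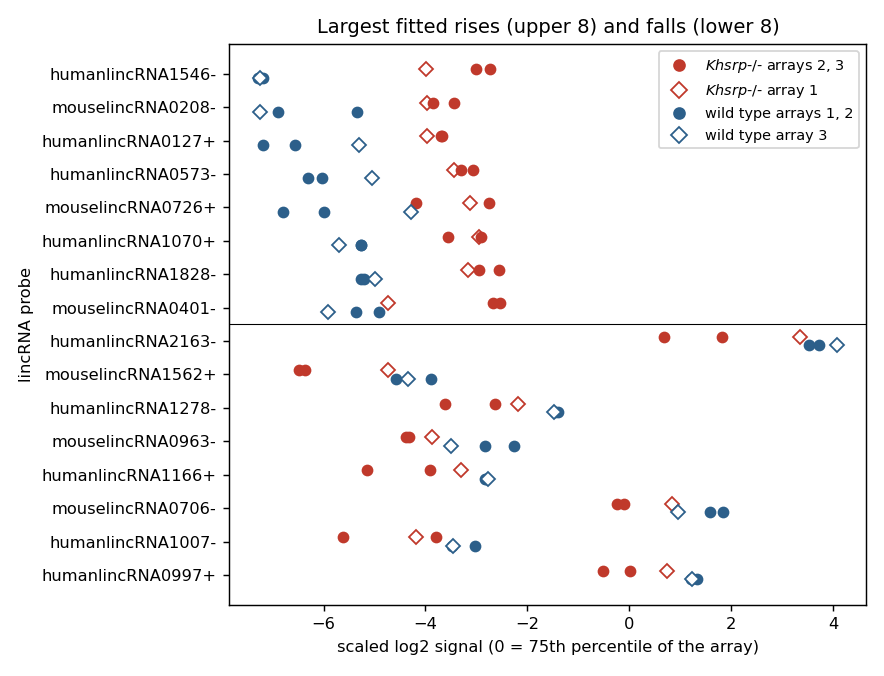
Scaled log2 signal (x axis) of the 8 lincRNA probes with the largest fitted rises and the 8 with the largest fitted falls (y axis) among probes past the unadjusted thresholds without overlap, with 1 point for each array. Open diamonds mark the 2 arrays of the slide that held both genotypes. The open diamonds differ by between -0.73 and -0.10 in the falls. In 6 of the 8 rises no wild type point is well above background, and the distance between genotypes there is not a measured fold.

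Both signs of a number were rarely called together. Of the 247 numbers with both probes tested, 35 had both fold changes above 0, 122 had both below 0 and 90 had them in opposite directions, and the log2 fold changes correlated at 0.06 over these numbers (Pearson, as a description). Among the 112 numbers with both signs and at least 1 probe called, both were called for 4 numbers. With 12.5% of the tested lincRNA probes called, few such numbers would be found even for unrelated signs. The count of 4 is therefore no result about the pairs. For 59 the other probe was tested and not called, with a change in the same direction for 33, and for 49 the other probe was not tested.

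mouselincRNA1188 was the 1 number with both probes called in the same direction. On the scaled log2 scale the plus probe measured -2.86, -2.89 and -2.53 in Khsrp-/- and -3.62, -3.99 and -3.81 in wild type neocortex, a difference of 1.05 ± 0.18 (SE, limma adjusted p = 0.105). The minus probe measured -1.28, -1.38 and -0.96 against -1.73, -1.69 and -1.51, a difference of 0.44 ± 0.17 (SE, limma adjusted p = 0.286). Neither probe overlapped between genotypes. Within the shared slide they differed by 0.95 and 0.23. The minus probe lost its call without Khsrp-/- array 3, the first wild type array or the second, with limma p-values of 0.101, 0.125 and 0.109. It also lost it with the slide as a random or a fixed block, with limma p-values of 0.0711 and 0.441, and then no number had both probes called in 1 direction.

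The other 3 numbers had probes called in opposite directions, and they were named after their values were seen. MM9LINCRNAEXON10664 changed by -0.85 on the plus probe and by 0.65 on the minus probe. For humanlincRNA0459 the changes were -0.61 and 0.66, without overlap of genotypes. For mouselincRNA0172 they were -0.92 and 0.94, and on both probes the genotypes overlapped. With the slide as a random block, none of the 3 numbers had both probes called, since MM9LINCRNAEXON10664+, humanlincRNA0459+ and both mouselincRNA0172 probes lost their call, with limma p-values from 0.0544 to 0.101. The limma adjusted p-values of these 6 probes lay between 0.224 and 0.285. Plus and minus probes were called about as often, with 24 higher and 37 lower of 478 plus probes tested. Of 481 minus probes, 26 were higher and 33 lower. The background over all probes tested is 9.26% higher and 7.03% lower.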

How the data were processed

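Neocortex RNA of 3 Khsrp-/- and 3 wild type mice was measured on 1-colour Agilent lncRNA arrays. The authors deposited scanner output of Agilent Feature Extraction 11.0.1.1, in which the intensity of each spot is background-subtracted and not scaled between arrays, with marks of 0 or 1 (other columns that are not measurements). They also deposited normalized log2 values, whose normalization is not given in the sources used here. From the intensities, control and outlier spots were dropped, repeated spots averaged, and log2 values set relative to the 75th percentile of their array. For the 48438 probes detected on 3 or more arrays, limma 3.58.1 (lmFit, eBayes; R 4.3.3) compared the genotypes, with Benjamini-Hochberg adjustment over them all. The normexp alternative used the median spot intensity. The study marks an unadjusted p and a fold on its plot and names an adjusted p in its filter for targets, and calls at both are given here. The comparison was tested on simulated data. The alternatives included the slide as a random block (statmod 1.5.0). pandas 2.3.3, scipy 1.17.1 and matplotlib 3.10.9 were used.

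The members, lists and tests were chosen with earlier results of these data known. Named probes were those past the adjusted threshold, the 8 largest rises and falls by fitted difference past the unadjusted thresholds without overlap, the 5 brightest, and numbers with both probes called in 1 direction. Bright probes with a wide spread, probes detected in 1 genotype and the opposite pairs were named once their values were known. The number of arrays limits the precision. In the main fit the p-values rest on the spread between arrays of the same genotype, which limma moderates over all probes. That spread holds differences between mice and between slides. The list of known lncRNA genes could not be used, since no table paired them with these probes.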

Additional observations from a re-analysis of the deposited data

How the results depend on the processing

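The counts of 50 higher and 70 lower lincRNA probes, of 4 after adjustment and the median log2 fold change of -0.15 were recomputed under each alternative. The cause of a difference was not tested unless given. The backgrounds given above hold for the main fit only, so the counts below do not show whether all probes moved alike. Without scaling, which moves the median of other probes to -0.29, 18 were higher, 141 lower and 2 passed after adjustment. With normexp, 33 were lower, 0 passed after adjustment and the median was 0.082. Without the filter on dim probes, 121 were higher, 2 passed after adjustment and the median was 0.012. With probes above background on all arrays, which tests fewer probes, 33 were higher and 1 passed. The methods' t-test called 33 higher, 33 lower and 0 after adjustment. With the slide as a fixed block, which rests on 2 arrays, 19 were lower, 0 passed after adjustment and the median was 0.044, and as a random block 39 were lower. At the 1.5-fold threshold, with quantile normalization, a median shift, other percentiles, the authors' values, the floor, the trend and the brightest spot, the counts of higher and lower probes stayed within 1.5 times. With each array left out, between 33 and 74 were higher (fewest without Khsrp-/- array 3, most without Khsrp-/- array 1), between 32 and 184 lower and between 0 and 38 after adjustment, and the median was between -0.24 and -0.11. The counts after adjustment were 38 without Khsrp-/- array 1, 1 without Khsrp-/- array 2 or wild type array 1, and 0 without Khsrp-/- array 3 or wild type array 2.

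With the replicate number as a block, 41 were higher, 70 lower and 0 passed after adjustment. Within genotypes, equally numbered arrays deviated with correlations of -0.31, 0.10 and -0.31 over all probes, which gives no pairing.

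The detection of lincRNA minus that of other probes was -29.3 percentage points (mean of 6 arrays), -18.4 with the mark for positive and significant spots and -33.4 above the 95th percentile of negative controls, a setting chosen after seeing the data. The same difference of median log2 signals was -2.52, and -0.970 with normexp. The median residual SD was higher by 0.108, by 0.055 with other probes matched in bins of signal, and was -0.0033 with normexp. Matching in bins cannot be applied to detection or signal. Of 563 recomputed values of 24 named probes, 508 kept their direction and side of the thresholds, 42 lost the call, 2 gained it and 11 turned. humanlincRNA1739+ (0.03) was -0.00056 scaled on probes detected on all arrays, -0.26 without scaling, -0.0094 with normexp and from -0.35 to 0.37 without single arrays. humanlincRNA2397+ (-0.08) was 0.015 with the percentile over lincRNA probes and from -0.41 to 0.25 without single arrays. mouselincRNA0161- (-0.12) was 0.032 with the slide as a fixed block. None of these 3 was called.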
